A study of Danio rerio with 5 samples.

Results

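The genes described here are the zebrafish circadian clock genes bmal1a, bmal1b, clocka, per1b, per2, per3, bhlhe40, bhlhe41, nr1d1 and nr1d2a. Members were the probe sets that the annotation of the array platform pairs with one of these 10 symbols, whatever their values. This gave 9 probe sets for 8 genes, out of 8793 genes with a symbol and 15502 probe sets without controls. No probe set is paired with per1b or nr1d1 in the annotation used here, so these 2 genes have no value below. The gene per2 has 2 probe sets and each of the other genes has 1.

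Young adults of the wild-type AB line were exposed for 24 h, without food, to the vehicle DMSO, to benzene, to toluene, to formaldehyde, or to a BTF mix of these 3 compounds. Formaldehyde is a reactive aldehyde, and the other 2 compounds are aromatic solvents. Before exposure the fish lived at 28 °C with 14 h of light and 10 h of darkness. Each of the 5 conditions had 1 Affymetrix 3' expression array, so no value has a replicate spread, no test was possible, and every difference lacks a replicate check. The sources used here do not give the hour of the day at which fish were taken, nor doses, tissue or the number of fish behind an array. The sex entry is the same for all 5 samples and names no male or female group.

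The circadian clock of vertebrates is a feedback loop of transcription. Clock and Bmal proteins bind DNA together and switch on the period, cryptochrome and Dec (bhlhe40 and bhlhe41) genes, whose proteins then repress the same activators. Nuclear receptors of the Rev-erb family (nr1d1, nr1d2a) repress bmal1 genes and those of the Ror family activate them, which sets activators and repressors to peak at different times of day. In zebrafish most tissues carry their own clock and respond to light directly, so the level of a clock transcript depends on the hour as well as on the tissue. The part of the hour of sampling in the values below was not tested.

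Levels are log2 signals as deposited, and differences are log2 differences between 2 arrays, so that 1 is a 2-fold difference. A level filter kept the probe sets with a highest level of 7.02 or more, where 7.02 is the median over all probe sets and arrays, and 9716 probe sets passed. Of the 8 genes with a probe set, 6 passed: bmal1a, bmal1b, clocka, per2, bhlhe40 and bhlhe41. Both clocka and bhlhe41 passed through the BTF mix array alone, and 4 genes passed when that array was left out of the filter. The genes per3 and nr1d2a stayed below 7.02 on every array, as did the second per2 probe set, and their values are given as listed.

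**Figure D1:**
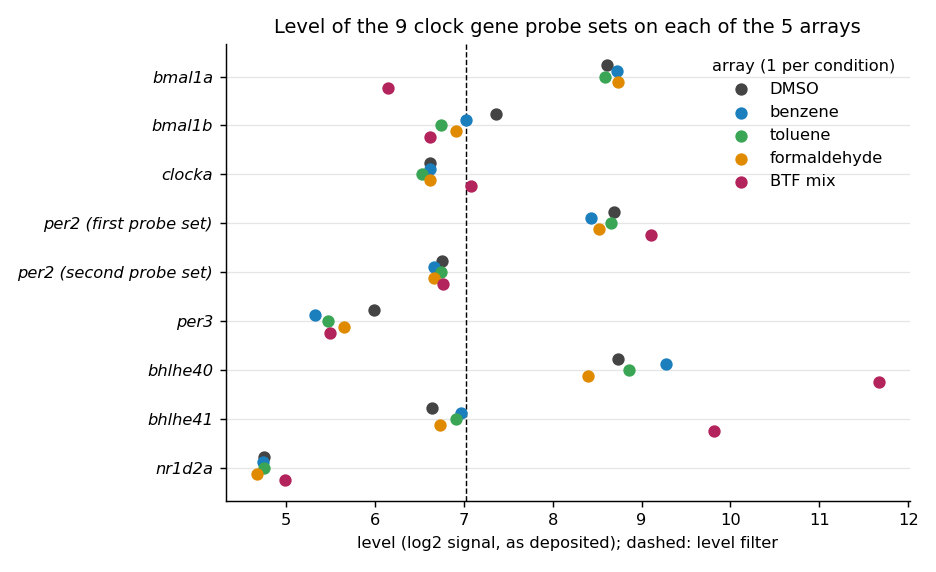
Level (log2 signal as deposited, horizontal axis) of each of the 9 clock gene probe sets on the DMSO, benzene, toluene, formaldehyde and BTF mix arrays, 1 point per array, with the level filter of 7.02 as a dashed line. The BTF mix point lies to the far right for bhlhe40 (11.67) and bhlhe41 (9.81) and to the far left for bmal1a (6.15), while the other 4 points of each row lie within 0.87 of each other.

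On the arrays of the single compounds the clock genes lay within 2-fold of DMSO. None of the 9 probe sets was 2-fold apart from DMSO with benzene, toluene or formaldehyde, where 3.10%, 2.89% and 3.82% of all 9716 probe sets were. The count of 0 is near that background and is no result about the clock genes. The differences of the 9 probe sets ran from -0.65 to 0.53 with benzene, from -0.62 to 0.28 with toluene and from -0.45 to 0.14 with formaldehyde. The median difference of the 6 genes past the filter was 0.06, -0.03 and -0.09 in the same order, beside medians of -0.003, 0 and -0.019 over all 9716 probe sets. With signs left out, the median difference of the 9 probe sets was 0.26 with benzene, 0.092 with toluene and 0.136 with formaldehyde. Over all 9716 probe sets it was 0.165, 0.168 and 0.211 in the same order. The 3 comparisons share the DMSO array. The median gap between the differences of probe sets for 1 gene, over 864 genes with at least 2, was 0.18 with benzene, 0.18 with toluene and 0.19 with formaldehyde. It compares probe sets on the same 2 arrays, so it does not measure scatter between arrays.

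**Figure D2:**
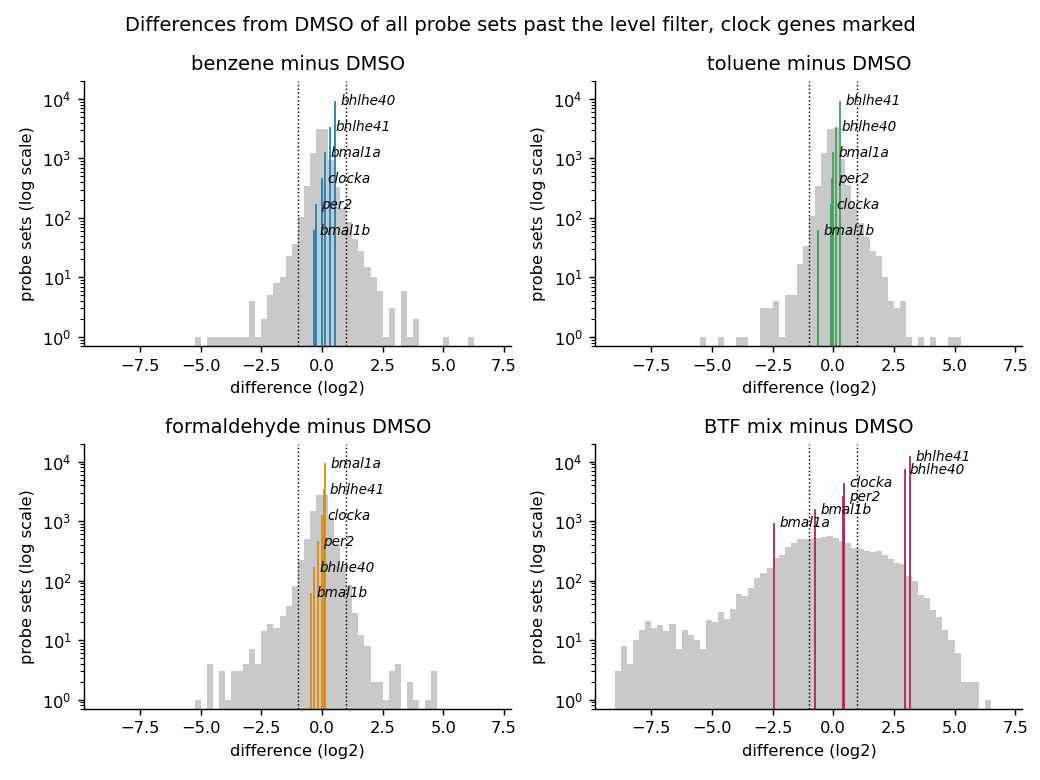
Histograms of the difference from DMSO (log2, horizontal axis) of all 9716 probe sets past the level filter, 1 panel per exposed array, with the number of probe sets on a log scale and dotted lines at 2-fold; coloured lines mark the clock genes and their heights serve only to separate the names. With benzene, toluene and formaldehyde all marked genes lie inside the dotted lines, and with the BTF mix bmal1a lies below them and bhlhe40 and bhlhe41 above.

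The activators of the loop come first. The gene bmal1a, a DNA-binding partner of Clock, had levels of 8.61 with DMSO, 8.72 with benzene, 8.59 with toluene, 8.74 with formaldehyde and 6.15 with the mix. The 4 arrays without the mix lay within 0.16 of each other, and the mix array lay 2.43 below the lowest of them. Against DMSO the mix array was lower by 2.45, so the DMSO signal was 5.48 times that of the mix. Of all 9716 probe sets, 9.83% were at least that much lower with the mix.

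Its paralog bmal1b had levels of 7.36 with DMSO, 7.02 with benzene, 6.74 with toluene, 6.91 with formaldehyde and 6.62 with the mix. The DMSO array was the highest, and the differences from it were -0.34, -0.62, -0.45 and -0.74 in the same order. With toluene, 3.19% of all 9716 probe sets were at least as far below DMSO. All 4 differences rest on the 1 DMSO array: against the mean of the other arrays without the mix they were 0.02, -0.36, -0.13 and -0.39. The paralogs thus had different values on the mix array, 2.45 below DMSO for bmal1a and 0.74 below for bmal1b, with no replicate to set the gap against. The median gap between probe sets of 1 gene was 0.55 there.

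The gene clocka encodes the partner of the Bmal proteins in the activator pair. Its levels were 6.62 with DMSO, 6.62 with benzene, 6.53 with toluene, 6.62 with formaldehyde and 7.08 with the mix. The first 4 lay within 0.09 of each other, and the mix lay 0.45 above DMSO. That difference is smaller than the median gap between probe sets of 1 gene on the mix array.

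The period genes encode repressors, and in zebrafish per2 is switched on by light. Its brighter probe set had levels of 8.69 with DMSO, 8.43 with benzene, 8.66 with toluene, 8.52 with formaldehyde and 9.11 with the mix. The mix array was the highest, at 0.42 above DMSO (0.79 after quantile and 0.96 after loess normalization), and benzene was the lowest at 0.26 below DMSO. The other per2 probe set had levels of 6.75, 6.66, 6.74, 6.66 and 6.76 in the same order. It spanned 0.09 over the first 4 arrays and lay 0.01 above DMSO with the mix, so the higher per2 level on the mix array was seen on 1 of 2 probe sets.

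The gene per3, another period repressor, was below the level filter on all arrays, with 5.99 for DMSO and 5.33, 5.47, 5.65 and 5.49 for benzene, toluene, formaldehyde and the mix. The DMSO array was again the highest. The differences were -0.65, -0.52, -0.33 and -0.50, and the benzene difference was the lowest of the 9 clock probe sets on that array. Among the 9716 probe sets past the filter, 2.92% were at least that much below DMSO with benzene. As per3 is not among them, that share does not compare probe sets of like level.

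The Dec genes had the highest values on the mix array relative to DMSO. They encode repressors that compete with the Clock and Bmal pair for DNA. The gene bhlhe40 had levels of 8.74 with DMSO, 9.27 with benzene, 8.86 with toluene, 8.40 with formaldehyde and 11.67 with the mix. The mix signal was 7.66 times that of DMSO, a log2 difference of 2.94, and lay 2.40 above the nearest array, benzene. Of all probe sets past the filter, 4.76% were at least as far above DMSO.

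Among the other 4 arrays bhlhe40 had the widest span of any clock probe set, 0.87, from formaldehyde at 0.34 below DMSO to benzene at 0.53 above it. Against the mean of the other arrays without the mix these were -0.55 and 0.60. With benzene, 6.33% of the probe sets past the filter were at least as far above DMSO, and with formaldehyde 17.9% were at least as far below. Skin and exocrine pancreas markers lay in the same order on those arrays, as given below, and their part in the bhlhe40 values was not tested.

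Its paralog bhlhe41 had levels of 6.64 with DMSO, 6.97 with benzene, 6.91 with toluene, 6.73 with formaldehyde and 9.81 with the mix. The first 4 arrays spanned 0.34, and the mix array lay 2.83 above the highest of them. The signal with the mix was 9.01 times that with DMSO, a log2 difference of 3.17, and 3.46% of all probe sets past the filter were at least as far above DMSO. As bhlhe41 passed the filter through the mix array alone, that share is a description and no support for the difference. The differences of the Dec paralogs on the mix array, 2.94 and 3.17, lay closer together than the median gap between probe sets of 1 gene, 0.55. After loess normalization they were 2.95 and 3.80, so bhlhe41 moved by more than that gap from its deposited value and bhlhe40 did not. The gap compares probe sets of 1 gene, so it does not measure whether paralogs agree.

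The Rev-erb gene nr1d2a, a repressor of bmal1 genes, was the dimmest probe set. Its levels were 4.75 with DMSO, 4.74 with benzene, 4.75 with toluene, 4.67 with formaldehyde and 4.99 with the mix. All were far below the level filter, and the largest difference from DMSO was 0.25, with the mix. Toluene and benzene, which differ by a methyl group, were given at doses not stated here. Between them the clock probe sets differed by -0.41 (bhlhe40) to 0.23 (per2), written as toluene minus benzene, and with 1 array each no interval can be put on these values.

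Over the 10 pairs of arrays, clock probe sets were 2-fold apart in the 4 pairs that include the mix and in none of the 6 others. In each of those 4 pairs the same 3 of 9 probe sets were past 2-fold, bhlhe40 and bhlhe41 higher and bmal1a lower with the mix. The background was high in all 4: 59.4% of all 9716 probe sets were at least 2-fold apart between the mix and DMSO, 57.2% between the mix and benzene, 58.0% between the mix and toluene and 58.4% between the mix and formaldehyde. Split by direction, the share higher by 2-fold or more with the mix was 26.5% against DMSO, 26.2% against benzene, 26.5% against toluene and 26.4% against formaldehyde. The share lower was 32.9%, 31.0%, 31.5% and 32.1% in the same order. The clock genes past the filter, 2 of 6 higher and 1 of 6 lower, are therefore not shown to differ from probe sets at large. Their median was 0.44, beside -0.216 over all 9716. After quantile normalization these values were 0.64 and 0.053, and after loess normalization 0.96 (5 genes) and -0.032. The count of 2 of 6 and the median of 0.44 include clocka or bhlhe41, which passed the filter through the mix array alone. The genes that passed without that array were at -2.45 (bmal1a), -0.74 (bmal1b), 0.42 (per2) and 2.94 (bhlhe40) with the mix. In the 3 pairs of single-compound arrays the background was 1.77% for toluene and benzene, 5.29% for formaldehyde and benzene and 5% for formaldehyde and toluene.

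The mix array differed from the other 4 in the tissue markers it held. Correlations across probe sets lay between 0.979 and 0.992 among the other 4 arrays and between 0.692 and 0.739 with the mix array; genes are not independent replicates. The marker lists were chosen with earlier results of these data known, so their counts are a description only. Of all 9716 probe sets, 32.9% were at least 2-fold lower and 26.5% higher with the mix than with DMSO. All 8 measured oocyte markers were lower by that fold. Their summed signal (log2) was 15.71 to 15.79 on the other 4 arrays and 9.33 on the mix array. Higher by at least 2-fold with the mix were 10 of 10 exocrine pancreas, 8 of 8 skin, 8 of 8 skeletal muscle, 5 of 6 liver, 5 of 5 brain and 5 of 5 photoreceptor markers past the filter, with median differences of 2.33, 3.30, 2.42, 2.60, 2.34 and 2.42. In the brain and photoreceptor lists gfap, sypa and gnat2 passed the filter through the mix array alone. Not past it were elavl3, at 0.50 on its brightest probe set, and opn1mw1, at 0.06. Only 1 of the 5 testis markers with a probe set passed the filter, piwil1, which oocytes also express, at -1.58. Below the filter, dmrt1, amh, sycp3 and tekt1 lay the other way, at 0.35, 0.86, 0.57 and 1.16. In RNA of mixed tissue, fewer cells of a type and less RNA per cell cannot be told apart. The part of these markers in the values of bmal1a, bhlhe40 and bhlhe41 was not tested.

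On the single-compound arrays the skin and exocrine pancreas markers also differed from DMSO. The summed signal (log2) of the 8 skin markers was 12.80 on the DMSO array, 14.00 on that of benzene, 13.92 on that of toluene and 10.65 on that of formaldehyde. That of the 10 pancreas markers was 15.06, 16.35, 15.97 and 11.75 in the same order. Both lists were thus highest with benzene, then toluene, then DMSO and lowest with formaldehyde among these 4 arrays, which is also the order of bhlhe40. The share of all probe sets with this order was not counted, so the match alone links bhlhe40 to neither list. Muscle and liver markers had another order: with formaldehyde 4 of 8 skeletal muscle and 4 of 6 liver markers were at least 2-fold above DMSO, with medians of 1.16 and 1.15. The summed signal (log2) of the oocyte markers spanned 0.08 on the same 4 arrays, while the single marker buc ran from 12.4 to 12.9. The 9 clock probe sets spanned from 0.07 (nr1d2a) to 0.87 (bhlhe40) there, with clocka at 0.09 and bmal1a at 0.16. A small span was thus not particular to bmal1a.

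**Figure D3:**
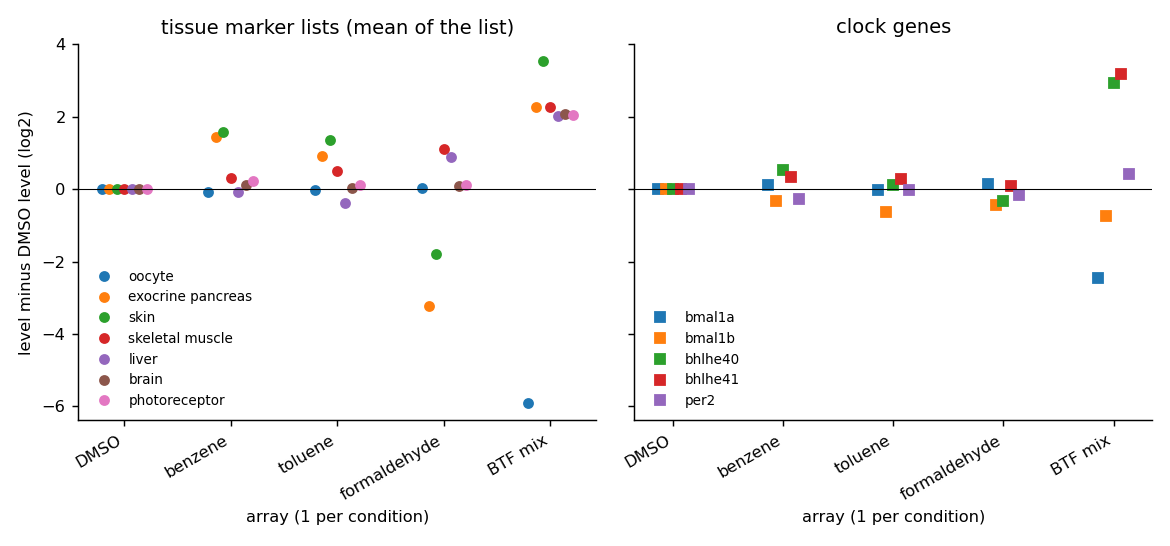
Level minus the DMSO level (log2, vertical axis) on each of the 5 arrays, for the mean of 7 tissue marker lists (left, circles) and for 5 clock genes (right, squares), with points offset sideways to separate them. With the BTF mix the oocyte list, bmal1a and bmal1b lie below 0 and the other lists, bhlhe40, bhlhe41 and per2 above. With benzene, toluene and formaldehyde the skin and pancreas lists spread further than any clock gene.

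The other genes of the pathway were taken from lists of activators, repressors, receptors, kinases, photolyases and outputs. Of 82 further symbols, 39 had a probe set and 29 passed the level filter. When the mix array was left out of the filter, 23 passed. The genes npas2, cry1a, rorab, nfil3-5, csnk1e and exorh passed through the mix array alone. Of these, cry1a, rorab and nfil3-5 are among the 8 counted below as higher with the mix. Counted on the brightest probe set of each gene, 0 of the 29 with benzene and with formaldehyde were 2-fold apart from DMSO, with toluene 1 was higher and 0 lower, and with the mix 8 were higher and 8 lower. Set against the same backgrounds as above, 3.10%, 3.82%, 2.89% and 59.4%, none of these counts is a result about the pathway. The medians over the 29 were 0 with benzene, 0 with toluene, 0.07 with formaldehyde and -0.29 with the mix.

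Among further activators, npas2, which can stand in for Clock in mammals, had levels of 6.64 with DMSO, 6.72 with benzene, 6.68 with toluene, 6.72 with formaldehyde and 7.18 with the mix. Another Bmal gene, bmal2, was discordant between its probe sets. The one with the higher mean had levels of 7.57, 7.34, 7.68, 7.68 and 6.09 in the same order of arrays. The other had 6.22, 7.31, 8.06, 7.55 and 6.14, so it was above DMSO by 1.09, 1.84 and 1.33 on the 3 single-compound arrays, each past 2-fold, where the first was within 0.24 of it. Both were lowest with the mix. No direction for bmal2 can be given for the single compounds.

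Some of the cryptochromes are partners of the period proteins in repression. On the mix array cry1a, which in zebrafish is light-responsive, was the one past 2-fold among cry1a, cry1b, cry2, cry3a, cry3b and cry4, at 1.41 above DMSO, with a level of 8.13, while the other 4 arrays lay between 6.63 and 6.72. The others lay at -0.78 for cry1b, -0.39 for cry2, -0.51 for cry3a, -0.02 for cry3b and -0.29 for cry4, of which cry3a and cry3b were below the level filter. On the single-compound arrays the 6 genes stayed between -0.31 (cry4 with formaldehyde) and 0.34 (the second cry2 probe set with formaldehyde). The related cry5 and cry-dash are described with the photolyases. The repressor ciarta, which binds the Clock and Bmal pair in mammals, lay between -0.48 and 0.18.

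Among the nuclear receptors, nr1d2b, a paralog of nr1d2a, had levels of 7.21 with DMSO, 7.72 with benzene, 7.59 with toluene, 6.99 with formaldehyde and 9.55 with the mix on its brighter probe set. Its order over the arrays, mix, benzene, toluene, DMSO and formaldehyde, is that of bhlhe40. Its dimmer probe set, with 6.49, 6.55, 6.55, 6.55 and 6.85, did not have that order. The Ror gene rorab, an activator, lay within 0.08 of DMSO on the single-compound arrays and was at 2.29 above it with the mix.

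The genes tefa and nfil3 act on one DNA element, the D-box, tefa as an activator and nfil3 as a repressor. The brighter tefa probe set had levels of 8.10 with DMSO, 8.66 with benzene, 8.16 with toluene, 7.79 with formaldehyde and 10.28 with the mix, again in the order of bhlhe40. The other tefa probe set had 7.75, 7.77, 7.26, 6.91 and 8.32, which is another order. The share of all probe sets with the bhlhe40 order was not counted, so the match alone links neither nr1d2b nor tefa to bhlhe40. Apart from the dimmer bmal2 probe set above, nfil3-6 was the only pathway gene past 2-fold on a single-compound array, with levels of 6.39, 6.91, 7.62, 6.85 and 10.28 and a difference of 1.23 with toluene. Against the mean of the other arrays without the mix that count of 1 was 0. Its second probe set lay between 3.86 and 4.42 on all arrays. The related nfil3-5 was within 0.17 of DMSO with the single compounds and at 2.70 with the mix.

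Kinases and enzymes of protein turnover set how long period and cryptochrome proteins last. The deubiquitinase usp2a had levels of 7.16 with DMSO, 7.30 with benzene, 7.21 with toluene, 7.91 with formaldehyde and 10.28 with the mix, and its formaldehyde difference of 0.75 was the largest of the list there. The ubiquitin ligase subunit fbxl3a, which in mammals marks cryptochromes for degradation, was at 1.44 with the mix. Lower with the mix were fbxw11b at -2.26 and fbxw11a at -1.35, which belong to the ligase of period proteins in mammals, and the kinase gsk3ab at -1.32. The related gsk3ba, below the level filter on every array, lay the other way, at 1.2 with the mix. The casein kinases csnk1da, csnk1db and csnk1e, which phosphorylate period proteins, lay between -0.61 and 0.56 over all exposed arrays.

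The list of photolyases, light-responsive repair genes and pineal genes was lower with the mix in 4 of its 7 genes past the filter and higher in 0, where 32.9% of all 9716 probe sets were lower and 26.5% higher. The lower count over the whole pathway was 8, and 5 after quantile or loess normalization. The 4 were cry-dash at -1.99, the glycosylase neil1 at -1.81, the damage sensor ddb2 at -1.36 and cry5, the photolyase of one class of ultraviolet lesion, at -1.03 on its brighter probe set and -0.32 on the other. The other photolyase, cpdp, was at -0.78. On the single-compound arrays the 7 genes stayed between -0.55 and 0.32. The pineal genes aanat2, which makes melatonin, and exorh, a pineal opsin, stayed between -0.37 and 0.17 on all exposed arrays. The clock output nampt2 was at 0.26, 0.25, 0.50 and -0.53 with benzene, toluene, formaldehyde and the mix. The outputs klf10 and klf11b, below the level filter on every array, were at 0.75 and 2.38 with the mix.

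**Figure D4:**
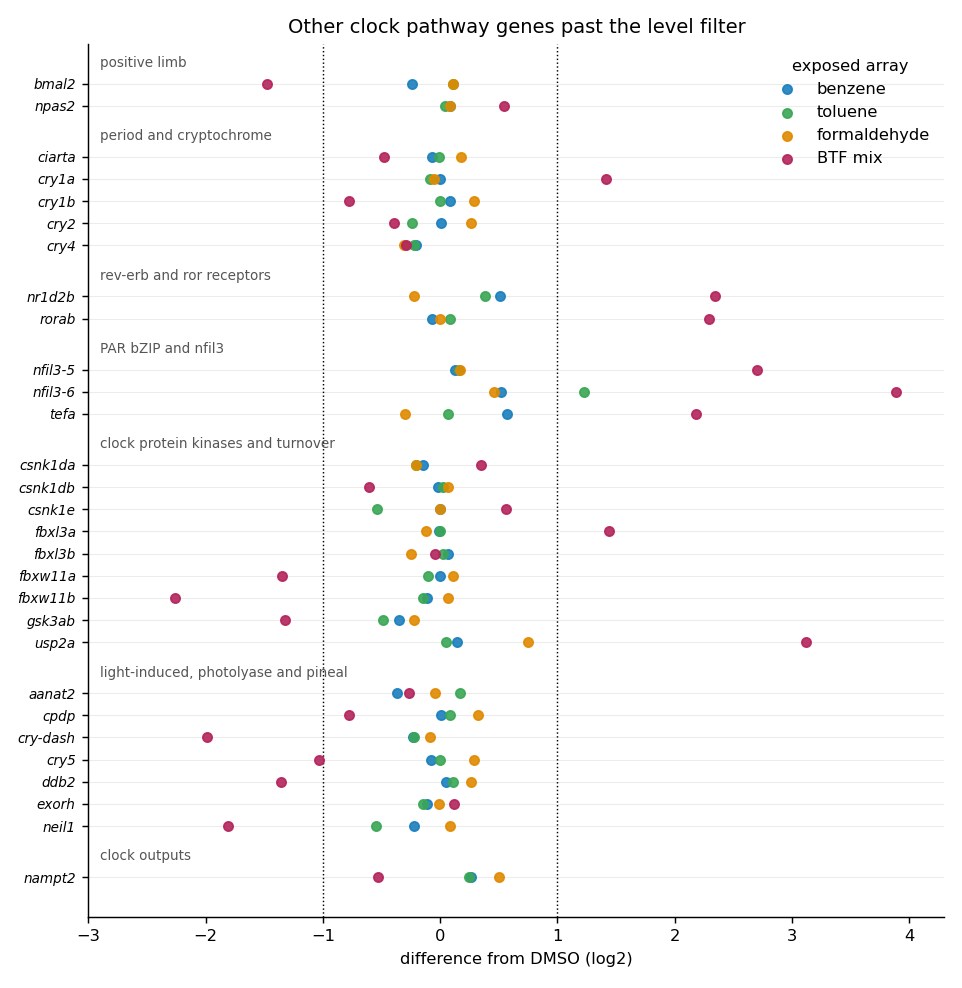
Difference from DMSO (log2, horizontal axis; dotted lines at 2-fold) of the 29 other clock pathway genes past the level filter, grouped by list, 1 point per exposed array and gene (its probe set of highest mean). Only nfil3-6 with toluene lies outside the dotted lines among the single-compound points, whereas 8 BTF mix points lie to the right and 8 to the left.

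Glucocorticoid response is coupled to the clock in many tissues, so its markers are set beside the clock genes. The genes klf9, tsc22d3, fkbp5 and cebpd had differences of 2.01, 1.22, 1.92 and 2.14 with toluene, where the 9 clock probe sets lay between -0.62 and 0.28. The second cebpd probe set was at -0.07 there. The medians of the 4 genes were 0.20 with benzene, 1.96 with toluene, 0.90 with formaldehyde and 4.44 with the mix. All 4 were at least 2-fold above DMSO with toluene and with the mix, where 2.11% and 26.5% of all 9716 probe sets were. This list was chosen with earlier results of these data known, so its values beside the clock genes are a description only.

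No clock gene reached 2-fold on a single-compound array, so the rule for finding genes of like pattern named none. For the 3 genes past 2-fold with the mix, the nearest genes were looked up after their values had been seen, by the root mean square distance between the 4 differences from DMSO. Closest to bmal1a were tmem67 and pomgnt1 at a distance of 0.05 and wdr48b at 0.07. Closest to bhlhe40 were ppp1r14bb at 0.10, olfml3b at 0.11 and sst2 at 0.11, and closest to bhlhe41 were btg1 at 0.07, zmynd12 at 0.09 and tlcd1 at 0.13. Of these, ppp1r14bb, olfml3b, zmynd12 and tlcd1 passed the level filter through the mix array alone, as bhlhe41 did. The distances and the counts below use that filter and are a description only. Such patterns were common: of 6681 genes compared, 405 lay within 0.3 of bmal1a, 112 within 0.3 of bhlhe40 and 113 within 0.3 of bhlhe41.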

How the data were processed

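Total RNA (300 ng) was labelled with biotin by a 3' in vitro transcription kit, per the labels' protocols. The values the authors deposited are on a log2 scale, with 1 value for each probe set on an array; RMA, MAS5 and Affymetrix Expression Console 1.1 are named in the submitters' processing notes, without their roles. The log base was taken from the range, 3.15 to 15.04. The 115 control probe sets were left out. Of 15502 others, 10795 had 1 gene symbol, 135 several and 4572 none. For 10711 of the 10795 the symbol was taken by Entrez identifier from NCBI RefSeq's gene table (GRCz12tu). In counts, a gene is represented by its probe set with the highest mean.

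Samples were grouped by labelled treatment, 1 array each. No test was possible. The number of arrays limits the precision. Members and lists were chosen with earlier results of these data known. Named were all members, all cryptochromes and, per list, up to 5 pathway genes at least 2-fold from DMSO; others were named after their values were seen. The counting was tested on simulated data. Python 3.11.15, pandas 2.3.3 and limma 3.58.1 were used. Alternatives were quantile and cyclic loess normalization, other level filters, averaging over the probe sets of each gene, and another reference.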

Additional observations from a re-analysis of the deposited data

How the results depend on the processing

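With 1 array per condition, every value rests on 1 hybridisation per side, and RMA without the scanner files cannot be rerun here. No paired analysis was possible because each condition has 1 array and the shared replicate number 1 leaves fewer than 2 pairs. Counts of 0 clock genes at least 2-fold apart with benzene, toluene and formaldehyde held under all 7 alternatives, of which the level filter over the 4 arrays without the mix was chosen after the data were examined. With the level filter at the 75th percentile (8.75), 3 clock genes remained tested; the count lower with the mix was then 0, since bmal1a did not pass, and the medians were 2.94 with the mix and 0.34 with benzene. At that filter 5 of 14 other pathway genes were higher and 5 lower with the mix. Of the 5590 probe sets past it, 25.3% were higher and 40.1% lower by that fold. The share 2-fold apart was 65.4% (3657 of 5590), against 59.4% (5774 of 9716) at the median filter. The count of other pathway genes lower with the mix was also 5 after quantile and 5 after loess normalization. Against the mean of the other arrays without the mix, the count of pathway genes higher with toluene was 0. After quantile and loess normalization bmal1a was at -2.55 and -2.25 with the mix and bhlhe40 at 3.14 and 2.95, and after loess clocka did not pass the filter. Of other single-gene values, bhlhe41 was at 3.80 with the mix after loess normalization, 0.48 with toluene after loess and -0.11 with formaldehyde against the other reference, bhlhe40 was at -0.55 with formaldehyde against that reference, and per2 was at 0.96 with the mix after loess and 0.79 after quantile normalization. The causes were not tested.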
